A study of Homo sapiens with 2 samples.

Results

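Integrins are the receptors by which a cell holds on to the extracellular matrix, and each receptor is 1 alpha chain joined to 1 beta chain, both spanning the membrane. The alpha chain largely sets which ligand is bound, while the beta chain connects to the cytoskeleton through talin, kindlin and their partners. Cells of ducts and other epithelia use them to stand on laminin and collagen of the basement membrane, and several of the receptors that carry ITGAV can release active TGF-beta from its latent complex. The 10 subunits described here are 5 alpha chains (ITGA2, ITGA3, ITGA5, ITGA6 and ITGAV) and 5 beta chains (ITGB1, ITGB4, ITGB5, ITGB6 and ITGB8), taken by symbol from the 56638 genes of the deposited tables, and each was found once.

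RNA was sequenced from TFK1, an established human cholangiocarcinoma cell line. The first library came from cells whose genotype is given as MBD2 knockdown and the second from negative control cells (sh-NC), both without further treatment, and per the study's methods the shRNAs were delivered by lentivirus and positive cells were selected with puromycin or G-418, without saying which was used here. MBD2 is a protein that reads methylated CpG and recruits the NuRD repressor complex, and the deposited comparison addresses which genes depend on it in this cell line. Each condition has 1 library, the labels do not say which shRNA against MBD2 it carried, and no difference below has a replicate check or a p-value.

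The libraries held 14728814 counts (MBD2-knockdown) and 14467406 counts (sh-NC). MBD2 had 365 counts in the MBD2-knockdown library and 1013 in sh-NC, which left 35.8% of the control level after TMM scaling. The label of an epithelial line was matched in part. KRT8, KRT7 and KRT18, the keratins of simple epithelia, had 49193, 11632 and 6277 counts in the MBD2-knockdown library, and CDH1 had 2342. GRHL2, an epithelial transcription factor, was at 0 in both libraries, and ESRP1 and CLDN7 had at most 15 counts in either. VIM, a mesenchymal filament gene, had 3743 counts in the MBD2-knockdown library and 3933 in sh-NC. The summed TPM of the 10 epithelial markers was 4808 in the MBD2-knockdown library and 5997 in sh-NC, with KRT8, KRT7 and KRT18 all lower. Of the 9 markers with enough reads 5 were higher, CDH1 (0.40), KRT19 (0.75) and CLDN4 (0.97) among them. The 4 lower ones were KRT8, KRT7, KRT18 and EPCAM, the last with 162 counts in sh-NC and 111 in the MBD2-knockdown library (-0.55). The median log2FC of the 9 markers was 0.40. The part of these markers in the results below was not tested. Of 10 leukocyte markers, 7 had 3 counts or fewer in each library, but not the same 7. CD79A had 4 counts in sh-NC and 3 in the MBD2-knockdown library, and LAPTM5 was at 3 in sh-NC only. At least 8 of 10 endothelial markers had 3 counts or fewer in each library. The 3 leukocyte markers with enough reads were all higher in the MBD2-knockdown library, namely CD14 (126 counts in sh-NC and 152), CORO1A (19 and 56, 1.53) and LAPTM5 (3 and 29, 3.07 with an interval from 1.57 to 5.62). Their summed TPM, with that of the other 7, was 14.3 in sh-NC and 20.5 in the MBD2-knockdown library, and their part in the results was not tested. EGFL7, an endothelial marker, had 396 counts in sh-NC and 425 in the MBD2-knockdown library. The fibroblast markers other than VIM stood low, with COL1A2 at 1 count in sh-NC and 0 in the MBD2-knockdown library.

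Log2FC is the log2 ratio of the MBD2-knockdown library to sh-NC, from counts scaled by TMM after adding 0.5 counts, for the 17545 genes with at least 10 counts in all. Its interval is the 95% exact Clopper-Pearson interval, which follows from how the reads of a gene divide over the libraries. TPM (a level corrected for transcript length and library depth) is the value the authors deposited, with a 95% exact Poisson interval from the gene's count. All of these intervals cover counting error only, since reads without molecular identifiers are not independent molecules. In bulk RNA, fewer cells that express a gene and less of its RNA per cell cannot be told apart. All 10 subunits passed the count minimum.

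The 10 subunits differed far more among themselves than between the libraries. ITGB1, the partner of most alpha chains, stood at 1671 TPM in each library. ITGB8, a partner of ITGAV, stood at 1.62 TPM in sh-NC and 1.08 TPM in the MBD2-knockdown library, so that the highest and the lowest subunit were 1032-fold and 1548-fold apart. In sh-NC the levels followed the order ITGB1, ITGB5, ITGA3, ITGAV, ITGB4, ITGA6, ITGA5, ITGA2, ITGB6 and ITGB8. The MBD2-knockdown library kept 8 of these 10 ranks, while ITGAV and ITGA3 exchanged places. The Poisson intervals of neighbors in the order were apart except for ITGA5 and ITGA2 in the MBD2-knockdown library, at 36.0 TPM (33.9 to 38.3) and 32.4 TPM (30.8 to 34.2).

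**Figure D1:**
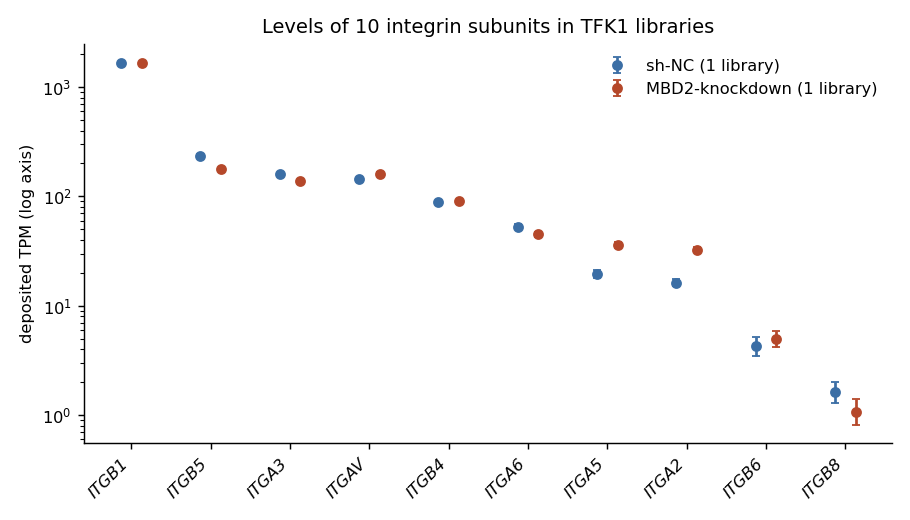
Deposited level of the 10 integrin subunits in the sh-NC and the MBD2-knockdown library, in TPM on a log axis, with bars for the 95% Poisson interval of the count (1 library per condition). ITGB1 stands at 1671 TPM in both libraries, and ITGA2 and ITGA5 are the subunits with the widest gap between libraries in the upward direction.

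Between the libraries, the collagen receptor chain ITGA2 and the fibronectin receptor chain ITGA5 were about 2-fold higher in the MBD2-knockdown library, and most other subunits stood close to their control level. The log2FC of 7 of the 10 subunits lay within 0.5 of 0. Of the 10 subunits, 6 were higher and 4 lower, with a median log2FC of 0.044, beside a median of -0.0082 over all 17545 genes. The counting interval lay above 0 for 4 subunits, below 0 for 4 and across 0 for ITGB4 and ITGB6.

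ITGA2 was the only subunit with a log2FC above 1, or 1 of 10, while 5.48% of all genes passed that line, and none lay below -1, which 5.07% of all genes did. With log2 of TPM plus 0.1 or plus 1, 0 subunits were above 1. A log2FC above 0.5 was found for 2 of 10 subunits, ITGA2 and ITGA5, against 12.8% of all genes, and a log2FC below -0.5 for 1 of 10, ITGB8, against 13.2%. These shares of the subunits are close to those of all genes. Many genes past the lines have few reads, however, and 8 of the 10 subunits reached 1000 counts in their higher library. Among the 3488 genes with that many counts, a comparison added after the data were seen, 4.39% had a log2FC above 0.5, which 2 of the 8 subunits did, and 3.27% had a log2FC below -0.5, which none of the 8 did. ITGA2 was the 45th highest of these 3488 genes by log2FC and ITGA5 the 59th, while ITGB5 was the 207th lowest. ITGA2 (711 counts in sh-NC) and ITGA5 (542 counts in sh-NC) reached 1000 counts only in the MBD2-knockdown library, where they are higher. Their place in this set therefore depends in part on the difference itself, and no conclusion is drawn from the comparison.

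**Figure D2:**
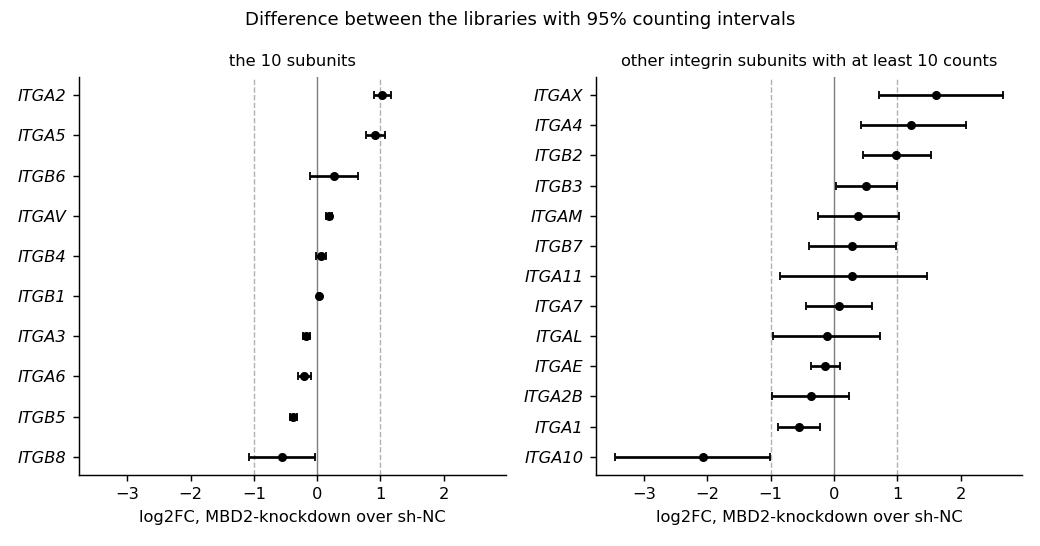
Log2FC of the 10 integrin subunits, MBD2-knockdown over sh-NC, with 95% Clopper-Pearson intervals that cover counting error only. ITGA2 (1.03) and ITGA5 (0.92) stand apart on the upper side, ITGB5 (-0.38) and ITGB8 (-0.55) are lowest, and the wide intervals belong to ITGB6 and ITGB8, which have few reads.

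Of the alpha chains, ITGA2 pairs with ITGB1 as a receptor for collagen. ITGA2 (ENSG00000164171; chr5:52989326-53094779, plus strand, in GENCODE 29 on GRCh38) had 711 counts in sh-NC and 1460 in the MBD2-knockdown library, or 16.2 and 32.4 TPM. Its log2FC was 1.03 (0.90 to 1.16), and the MBD2-knockdown level was 204% of that in sh-NC. The lower end of this interval is below 1, so the reads alone do not place ITGA2 beyond a doubling.

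ITGA5 pairs with ITGB1 as the main receptor of fibronectin, which it binds at the RGD sequence. ITGA5 (ENSG00000161638; chr12:54395261-54419460, minus strand) had 542 counts in sh-NC and 1029 in the MBD2-knockdown library, or 19.5 and 36.0 TPM. Its log2FC was 0.92 (0.76 to 1.07), with an MBD2-knockdown level of 189% of sh-NC. The intervals of ITGA2 and ITGA5 overlap, and those of the other 8 subunits lie below both.

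The laminin receptor chains ITGA3 and ITGA6 both had somewhat fewer reads in the MBD2-knockdown library. ITGA3 (ENSG00000005884; chr17:50055968-50090481, plus strand) pairs with ITGB1 and had 4850 counts in sh-NC and 4336 in the MBD2-knockdown library, or 159 and 138 TPM. Its log2FC was -0.17 (-0.23 to -0.11). ITGA6 (ENSG00000091409; chr2:172427354-172506282, plus strand) pairs with ITGB1 or ITGB4 and had 1748 and 1527 counts, or 52.9 and 45.1 TPM, with a log2FC of -0.20 (-0.30 to -0.10). The intervals of ITGA3 and ITGA6 overlap, and the MBD2-knockdown levels were 88.9% and 86.8% of sh-NC.

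ITGAV, the alpha chain of the vitronectin and latent TGF-beta receptors, joins with ITGB1, ITGB5, ITGB6 or ITGB8 among the beta chains here. ITGAV (ENSG00000138448; chr2:186590065-186680901, plus strand) had 5680 counts in sh-NC and 6508 in the MBD2-knockdown library, or 145 and 162 TPM. Its log2FC was 0.19 (0.14 to 0.24), opposite in sign to that of the laminin receptor chains and far below that of ITGA2 and ITGA5.

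Of the beta chains, ITGB1 was nearly level between the libraries. ITGB1 (ENSG00000150093; chr10:32900319-33005792, minus strand) had 35241 counts in sh-NC and 36153 in the MBD2-knockdown library, with a log2FC of 0.028 (0.0068 to 0.049). The deposited TPM values were equal to 4 digits, and on the TPM scale the log2FC was -0.00011, so ITGB1 has no fixed direction. A processed pseudogene, ITGB1P1, had 1157 and 1241 counts, or 3.28% and 3.43% of those of ITGB1. Reads of ITGB1 may be split between these rows, or left out where they map to both, which was not tested. The level of ITGB1 is uncertain for that reason.

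ITGB4 is the beta chain of hemidesmosomes, where with ITGA6 it ties keratin filaments to laminin. ITGB4 (ENSG00000132470; chr17:75721328-75757818, plus strand) had 2903 counts in sh-NC and 3043 in the MBD2-knockdown library, or 88.0 and 89.9 TPM. Its log2FC of 0.059 has an interval that includes 0 (-0.015 to 0.13).

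ITGB5 joins with ITGAV as a vitronectin receptor and was the beta chain with the clearest difference. ITGB5 (ENSG00000082781; chr3:124761948-124901418, minus strand) had 5737 counts in sh-NC and 4450 in the MBD2-knockdown library, or 235 and 178 TPM. Its log2FC was -0.38 (-0.43 to -0.32), and the MBD2-knockdown level was 77.1% of sh-NC. In TPM the gap of ITGB5 between the libraries was wider than that of any other subunit.

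ITGB6 and ITGB8, whose receptors with ITGAV activate latent TGF-beta, were rare transcripts in both libraries. ITGB6 (ENSG00000115221; chr2:160099666-160200313, minus strand) had 111 counts in sh-NC and 134 in the MBD2-knockdown library, or 4.26 and 5.01 TPM, and the interval of its log2FC of 0.26 includes 0 (-0.11 to 0.64). ITGB8 (ENSG00000105855; chr7:20330702-20415754, plus strand) had 79 and 54 counts, or 1.62 and 1.08 TPM. Its log2FC was -0.55 (-1.08 to -0.040), so at this depth the difference in ITGB8 can be anything from a small one to a halving. With log2 of TPM plus 1 the value of ITGB8 was -0.33.

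Some rows of other genes overlap the subunits. ITGB4 lies on the strand opposite to GALK1, which had 461 counts in sh-NC and 405 in the MBD2-knockdown library. RP11-462L8.1, opposite to ITGB1, had 147 and 118 counts, and no other overlapping row had more than 40. ITGA3 and ITGB6 had no overlapping row. Whether counting used the strand is not given in the sources used here, and without it reads of such partners cannot be told apart.

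Added together, the 10 subunits had 2393 TPM in sh-NC and 2359 TPM in the MBD2-knockdown library, which was 98.5% and 98.4% of the TPM of all 26 integrin subunit genes. Their counts summed to 57602 and 58694. The 5 beta chains exceeded the 5 alpha chains in both libraries, at 2000.4 against 392 TPM in sh-NC and 1945 against 414 TPM in the MBD2-knockdown library, a ratio of 5.10 and 4.70. ITGB1 alone was 4.26 and 4.04 times the sum of the alpha chains.

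Within the alpha chains, the laminin receptor chains took a smaller share in the MBD2-knockdown library and the collagen and fibronectin receptor chains a larger one. ITGA2 made up 4.13% of the alpha TPM in sh-NC and 7.84% in the MBD2-knockdown library, and ITGA5 made up 4.96% and 8.70%. ITGA3 made up 40.5% and 33.4%, and ITGA6 made up 13.5% and 10.9%. ITGAV had 36.9% and 39.1%, so that by TPM ITGA3 was the leading alpha chain in sh-NC and ITGAV in the MBD2-knockdown library. By counts, which are not corrected for length, ITGAV led in both, with 42.0% against 35.8% for ITGA3 in sh-NC.

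Within the beta chains, ITGB1 dominated both libraries, with 83.5% of the beta TPM in sh-NC and 85.9% in the MBD2-knockdown library. ITGB5 was next with 11.8% and 9.15%, and ITGB4 had 4.4% and 4.62%. ITGB6 and ITGB8 together stayed a minor component, at 0.213% and 0.0810% in sh-NC against 0.258% and 0.0555% in the MBD2-knockdown library.

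**Figure D3:**
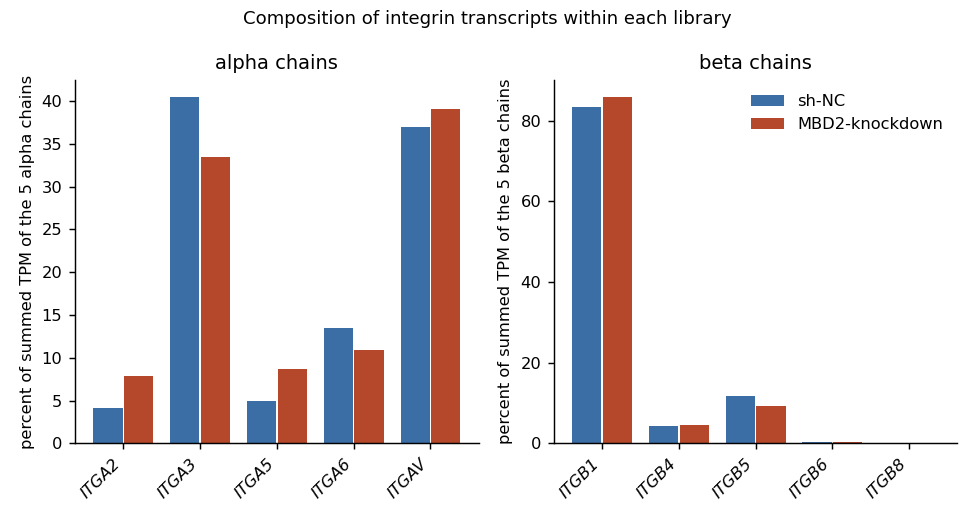
Share of each alpha chain in the summed TPM of the 5 alpha chains (left) and of each beta chain in that of the 5 beta chains (right), for sh-NC and the MBD2-knockdown library (1 library each, no error bars). ITGA3 goes from 40.5% to 33.4% while ITGA2 and ITGA5 go from 4.13% and 4.96% to 7.84% and 8.70%, and ITGB1 holds over 83% of the beta chains in both.

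Since receptors assemble from pairs, the ratio of alpha to beta transcripts was compared in 9 pairs known to form, which does not measure protein. These ratios were added after the data were seen, and their 95% intervals use a normal approximation on log counts. The interval lay above 0 in 5 pairs, below 0 in 3 and across 0 in 1, and several pairs share a chain. The ratios of ITGA2 and of ITGA5 to ITGB1 were higher in the MBD2-knockdown library by 1.0 (0.87 to 1.13) and 0.89 (0.74 to 1.04) on the log2 scale. ITGB1 was 103 times ITGA2 in sh-NC and 51.5 times in the MBD2-knockdown library by TPM, so in neither library did ITGA2 approach the level of its partner.

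The pairs of ITGAV diverged from one another. ITGAV over ITGB5 was 0.616 by TPM in sh-NC and 0.910 in the MBD2-knockdown library, a log2 difference of 0.56 (0.49 to 0.64), to which the higher ITGAV and the lower ITGB5 both contribute. ITGAV over ITGB8 differed by 0.75 (0.24 to 1.25) and over ITGB6 by -0.075 (-0.44 to 0.29), with ITGAV in large excess over both. ITGAV over ITGB1 differed by 0.16. The laminin receptor pairs went the other way, with ITGA3 over ITGB1 at -0.20, ITGA6 over ITGB1 at -0.23 and ITGA6 over ITGB4 at -0.26 (-0.39 to -0.14). For the hemidesmosome receptor, ITGA6 over ITGB4 was 0.601 in sh-NC and 0.501 in the MBD2-knockdown library.

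**Figure D4:**
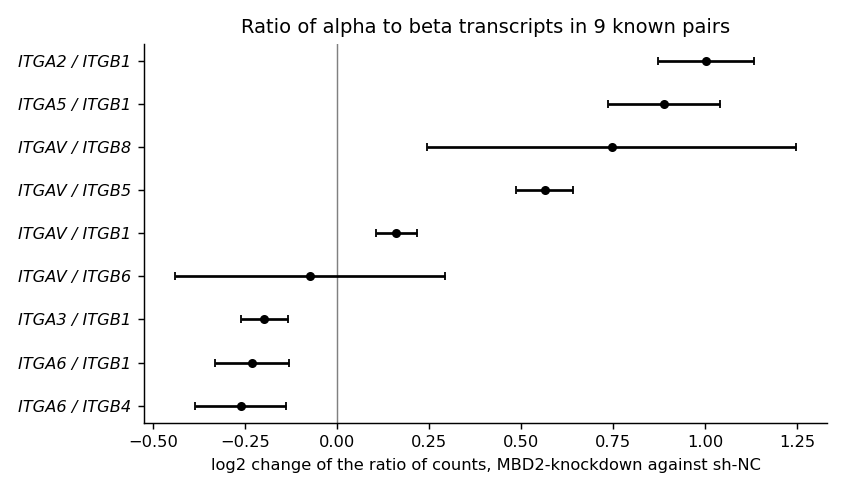
Log2 difference between the MBD2-knockdown library and sh-NC in the ratio of alpha to beta chain counts for 9 receptor pairs, with 95% normal-approximation intervals that cover counting error only. The ITGA2 and ITGA5 ratios to ITGB1 are furthest to the right (1.0 and 0.89), and the 3 ratios of ITGA3 and ITGA6 lie left of 0.

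The stretch before the start sites is of interest because MBD2 belongs to the proteins that bind methylated CpG. Promoters were taken from RefSeq (GRCh38.p14) for 8 of the 10 subunits, 13 start sites in all, and ITGA3 and ITGB4 were not matched. The stretches below belong to the 3 subunits past 0.5 on the log2 scale and show how dense their CpG is, with each CpG in capitals. They begin 250 bases before the start site and stop where an exon of GENCODE 29 begins, which leaves 224, 56 and 52 bases. They lie at chr5:52989102-52989325 (ITGA2, plus strand), chr12:54419461-54419516 (ITGA5, minus strand) and chr7:20330650-20330701 (ITGB8, plus strand).
ITGA2: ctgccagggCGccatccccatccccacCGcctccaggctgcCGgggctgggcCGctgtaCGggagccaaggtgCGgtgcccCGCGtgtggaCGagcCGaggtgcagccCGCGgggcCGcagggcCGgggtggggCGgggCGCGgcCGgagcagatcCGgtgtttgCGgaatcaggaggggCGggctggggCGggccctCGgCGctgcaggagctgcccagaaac
ITGA5: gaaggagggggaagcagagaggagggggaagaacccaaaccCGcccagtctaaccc
ITGB8: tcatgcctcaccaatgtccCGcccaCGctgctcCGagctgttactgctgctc

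The printed stretches hold 24, 1 and 3 CpG. Over the whole 250 bases before the start, ITGA2 had 26 CpG, more than 80.4% of the 35116 RefSeq promoters of the same length. ITGB8 had 21 (more than 69.8%) and ITGA5 had 12 (more than 51.5%), and the median over all promoters was 11. The promoters of the 8 matched subunits ran from 0 CpG for ITGB6 to 32 for 1 of the starts of ITGB1. Beside ITGA2 (log2FC 1.03), subunits with a start of at least 18 CpG were ITGB1 (32 at 1 start and 4 at the other, 0.028) and ITGA6 (30 and 8, -0.20). The others were ITGB5 (23, 19 and 9, -0.38), ITGB8 (21, -0.55) and ITGAV (18 and 1, 0.19), while ITGA5, near the median of CpG, had 0.92. Methylation was not measured here.

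Sequence motifs were searched on both strands from 250 bases before to 50 after the start. The GC box (GGGCGG), present in 45% of all promoters, occurred 4 times in ITGA2, beginning 119, 73, 63 and 9 bases before the start, once in ITGA5 (210 bases before) and at 2 places in ITGB8 (232 and 49 bases before). It was also found in ITGA6, ITGB1 and ITGB5. The AP-1 motif (TGANTCA), present in 7.71%, was found among the subunits in ITGA5 alone, as TGAGTCA beginning 6 bases before the start. The TEAD core (GGAATG, 14.0%) in ITGA5 lies 82 bases before the start and overlaps a match to the NF-kB motif (11.3%), and ITGB8 has another NF-kB match at 87 bases. The start of ITGB1 with 32 CpG also held 1 TEAD core and 1 NF-kB match. TATAAA, in 11.5% of promoters, was found in ITGA6 and ITGB1. The promoters of ITGAV and ITGB6 held none of the 5 motifs, and a match is a description of letters, not of binding.

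The remaining integrin genes were scarce beside the 10 subunits. Of 9 other non-leukocyte subunits, 7 had enough reads, and together they reached 14.1 TPM in sh-NC and 13.8 TPM in the MBD2-knockdown library. ITGA1, another collagen receptor chain, had 194 and 133 counts and a log2FC of -0.55, opposite in sign to ITGA2. ITGA11, also a collagen receptor chain, had 13 and 16 counts and a log2FC of 0.28, with an interval across 0 (-0.86 to 1.47). ITGB3, another partner of ITGAV, had 63 and 90 counts (0.50) and ITGA7, a laminin receptor chain, 63 and 67. ITGA4 was above 1 (19 and 45 counts, 1.21) and ITGA10 below -1 (35 and 8 counts, -2.07), both on few reads. Of the 7 leukocyte subunits, 6 had enough reads, and ITGAX passed 1 with 13 and 41 counts, while ITGAE, with 339 and 310 counts, had the most reads of them, followed by ITGB2 (46 and 92) and ITGB7 (35 and 43).

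Among the ligands of the subunits, the laminins and collagens held several genes with a large log2FC. Of 13 laminin and collagen ligands, 12 had enough reads, 4 were above 1 and none below -1, against 5.48% and 5.07% of all genes. Their median log2FC was 0.64, and 0.35 without the count minimum. Genes above 1 included LAMB3, a chain of laminin-332 (346 counts in sh-NC and 961 in the MBD2-knockdown library, 1.46), COL4A1 (1833 and 4790, 1.38) and COL1A1 (124 and 308, 1.30). LAMA3, the alpha chain of laminin-332, had 1340 and 1336 counts and a log2FC of -0.013. This laminin is the ligand of the receptors of ITGA3 and ITGA6, which stood at -0.17 and -0.20, while collagen is the ligand of that of ITGA2, at 1.03. Among the ligands of this list with the highest TPM, LAMB1 (0.024), LAMC1 (-0.039) and LAMA5 (-0.13) were near 0.

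The genes listed as RGD ligands of ITGA5 and ITGAV receptors, not all of which carry an RGD sequence, had no common direction. Of 13 genes, 1 was above 1 and none below -1 (5.48% and 5.07% of all genes), with a median log2FC of -0.080 that turned to 0.050 with at least 100 counts. The gene above 1 was TNC, a matrix protein of remodeling tissue, with 23 counts in sh-NC and 146 in the MBD2-knockdown library (2.63, interval 2.02 to 3.36). FN1, the fibronectin bound by ITGA5, had 20162 and 24146 counts and a log2FC of 0.25, well under that of ITGA5. SPP1, or osteopontin, was at -0.080 and TGFB1, whose latent form is bound by ITGAV receptors, at 0.34.

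Genes whose proteins work on the cytoplasmic side of the subunits had list medians near 0 (-0.063 and 0.11). Some of them were above 0.5 and none was below -0.5. Of 15 activators and inhibitors, 1 was above 1 (FLNC, with 4 and 23 counts) and none below -1, against 5.48% and 5.07% of all genes. Above 0.5 were 3 of the 15, against 12.8% of all genes, and none was below -0.5, against 13.2%. Their median was -0.063. TLN1, the talin that switches on beta chains, stood at -0.088 and FLNA, a filamin that competes with talin, at -0.081, with RAP1B, a small GTPase that recruits talin, at 0.11. FERMT1 and FERMT2, the kindlins, had 708 and 1036 counts and 1089 and 1663 counts, or log2FC of 0.54 and 0.60. Of 22 focal adhesion adaptors and kinases with enough reads, none was past 1 or -1, 4 were above 0.5 (TNS1 at 0.96, TNS4 at 0.70, ZYX at 0.61 and VCL at 0.51) against 12.8% of all genes, and none was below -0.5 against 13.2%. Those with the highest TPM, ACTN4 (-0.17), TNS3 (0.16) and ACTN1 (-0.020), were close to 0. ILK, whose protein acts at the tail of ITGB1, had 12 and 11 counts and overlaps TAF10 (651 and 746 counts), so the level of ILK is uncertain.

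The 4 partners of ITGA6 and ITGB4 in hemidesmosomes had a median of -0.12 and none was past -1. All 4 values were below 0, as were those of 8963 of the 17545 genes, and COL17A1, with 19 and 18 counts, had no clear direction (-0.085, interval -1.10 to 0.92). Of the others, PLEC, which links ITGB4 to keratin, was at -0.095, DST at -0.25 and CD151, a tetraspanin of laminin receptors, at -0.15. A further 6 tetraspanins, organizers of receptors in the membrane, had a median of 0.082, with CD63 at -0.032, CD9 at -0.27 and CD81 at 0.20. The 9 genes of integrin traffic with enough reads had a median of -0.045, with SNX17 at -0.017, ARF6 at -0.23 and RAB11A at 0.15, and none of either list was past 1 or -1. Of 15 TGF-beta targets with enough reads, 4 were above 1, against 5.48% of all genes, and none below -1. Their median was 0.17, and 0.070 with at least 100 counts, and among those with the highest TPM ID1 stood at -0.020, ID3 at 0.17 and TGFBI at 0.80. The targets above 1 were PMEPA1 (1612 and 5313 counts, 1.71), TGM2 (3134 and 6986, 1.15), LTBP2 (344 and 700, 1.02) and LRRC15 (2 and 10 counts).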

How the data were processed

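The authors deposited whole-number read counts per gene, without normalization, and TPM. The submitters' processing notes name fastp, HISAT2 2.1.0, featureCounts, DESeq 1.18.1 and GRCh38.p13, with no roles; annotation and strandedness are not given in the sources used here. Deposited gene positions differ from those of GENCODE 29 (GRCh38), which are printed here. Lines without a gene (46 of 63723) were dropped and 1 row per symbol and value was kept. Counts were scaled with TMM in edgeR 4.0.16 (R 4.3.3), with a prior of 0.5 counts and intervals from scipy 1.17.1, and the scripts were tested on simulated data. No other per-sample column exists in the tables. The subunits and gene lists were chosen with earlier results of these data known. Genes named are the subunits, MBD2 and, per list, the 3 with the highest summed TPM or those past 1 or -1 with at least 100 counts. Others (ITGA4, ITGA10, ITGA11, ITGAX, ITGB1P1, GALK1, RP11-462L8.1, LAMA3, FLNC, TLN1, FERMT1, FERMT2, TNS1, TNS4, ZYX, VCL, COL17A1, ILK, TAF10, LRRC15 and markers) were chosen after their values were seen. Some genes that this rule names are not reported here. Alternatives were DESeq2 1.42.0 size factors, total counts, upper-quartile factors, log2 of TPM plus 0.1 or 1, a minimum of 100 counts or none, priors of 2 and 0.1, all rows kept, and shares by counts.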

Additional observations from a re-analysis of the deposited data

How the results depend on the processing

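Of 310 recomputed values, 289 stayed the same, 18 moved and 3 reversed. Same means that the direction held and the value lay in the interval of the main result. For counts of subunits and percents of genes it means a value within a fixed ratio of the main one. A value can stay the same by this rule and still cross a line at 1 or -0.5, as with ITGA2 and ITGB8. ITGB1 reversed to -0.00011 with log2 of TPM plus 0.1 and with TPM plus 1, and TPM lowered all well-counted genes by a median of 0.028, or -0.028 on the log2 scale. The median of the list of RGD ligands reversed to 0.050 with at least 100 counts. The laminin and collagen median was 0.35 without a filter, and the median of the TGF-beta targets was 0.070 with at least 100 counts. ITGA2 ranged from 0.96 to 1.04, so that 0 subunits were above 1 with TPM plus 0.1 or plus 1, and ITGB8 ranged from -0.57 to -0.33, so that 0 were below -0.5 with TPM plus 1. ITGA5 ranged from 0.86 to 0.93, ITGB5 from -0.40 to -0.36 and MBD2 from -1.50 to -1.45. The percent of all genes above 1 and below -1 was 2.13 and 1.94 with TPM plus 1, 16.6 and 15.8 without a filter, and 1.76 and 1.07 with at least 100 counts. Above 0.5 it was 8.03, 23.3 and 6.34 in the same order, and below -0.5 it was 23.0 without a filter and 6.06 with at least 100 counts. By counts, the alpha shares of ITGA2 and ITGA5 differed by 4.57 and 2.92 points. No paired analysis was possible because only 1 library stands for either condition. ITGB6 and ITGB8 are limited by depth.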
